A study of Mus musculus with 6 samples.

Results

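The genes described here are Yap1, Wwtr1, Tead1, Tead2, Tead3, Tead4, Vgll3 and Vgll4, which encode the co-activators YAP and TAZ, the TEAD transcription factors they act through, and a pair of Vestigial-like cofactors that also bind TEAD. They were taken by symbol, and all 8 were found among the 23366 genes listed. RNA was sequenced from SC4 cells, a mouse Schwann cell line isolated from a schwannoma that lacks Nf2, the gene for merlin, so both groups are labelled as lacking it. Reads were still counted for Nf2, at 3779 ± 215 normalized counts with control siRNA and 2985 ± 89.3 with YAP siRNA (SD, n = 3), and values per gene do not show which exons they came from. One group of 3 libraries came from cells given a control siRNA, and the other group of 3 from cells given a pool of siRNAs against YAP, each 48 hours after transfection. The labels name 1 cell line and do not say whether replicates 1 to 3 were separate cultures, so the p-values given here reflect the spread of these libraries alone, which may be technical.

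YAP and TAZ have no DNA-binding domain and reach their target genes by binding TEAD proteins. The Hippo pathway, in which merlin acts upstream, activates the LATS kinases, which phosphorylate YAP and TAZ, keep them out of the nucleus and promote their degradation. TEAD proteins share a DNA-binding TEA domain. VGLL proteins contact the same face of TEAD as YAP, and VGLL4 is known as a competitor of YAP for TEAD.

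The libraries held between 18025132 and 60078880 reads in genes, recovered from the deposited normalized counts. Replicate 1 of both groups stood apart from the other libraries on the first principal component, which held 63.5% of the variance, and the siRNA groups separated on the second, which held 23.1%. Of the 11 Schwann cell lineage markers examined, Sox10 and S100b had mean normalized counts of 4.36 and 9.25, whereas Ngfr and Mbp had means of 2310.0 and 1997. The summed Schwann markers ranged from 5662 to 7780 in the controls and from 6127 to 6619 after YAP siRNA, but single markers went opposite ways within replicate numbers. Ngfr stood at 4621, 2036 and 1790 in control replicates 1, 2 and 3 and at 3486, 1051 and 876 after YAP siRNA. Fabp7 stood at between 13.3 and 18.2 in the controls and between 70.8 and 75.7 after YAP siRNA, and Erbb3 at between 49.3 and 92.6 and between 137 and 160.5. Of 6 fibroblast markers, Col1a1, Col1a2 and Pdgfra were abundant and Lum was at 4.15 or less. The sum, mostly Col1a1 and Col1a2, ranged from 241216 to 512375 in the controls and from 193696 to 376995 after YAP siRNA. Within each replicate number Col1a1, Col1a2 and Dcn were lower after YAP siRNA, whereas Pdgfra and Thy1 were higher. Pdgfra stood at 6147, 9427 and 8413 in control replicates 1, 2 and 3 and at 6734, 10360 and 10090 after YAP siRNA. The 4 endothelial markers summed to between 150.2 and 235 in the controls and to between 186 and 271 after YAP siRNA, with Tek at 1.2 or less, and the 4 skeletal muscle markers to between 36.4 and 67.8, and 28.9 and 139, with Myod1 and Myog listed at 0. The 4 epithelial markers summed to between 267 and 498 in the controls and to between 79.3 and 93.4 after YAP siRNA, a difference carried by Krt18 (184 to 373 against 49.3 to 60.3) and Krt8 (59.2 to 104 against 18.1 to 22.2). Cdh1 was between 0 and 3.04 in the controls and between 2.02 and 6.01 after YAP siRNA. The 4 immune markers summed to between 284 and 322 in the controls and to between 193 and 252 after YAP siRNA, with Emr1 at 0.461 or less. Csf1r was lower within each replicate number (119.9, 167.6 and 196.3 in control replicates 1, 2 and 3 against 81.7, 62.6 and 84.4). Ptprc was higher within each number (0, 28.8 and 11.1 against 6.01, 29.3 and 13.6). Cd68 was lower in numbers 1 and 2 and higher in number 3 (163.9, 109.9 and 113.8 against 123.8, 100.9 and 153.7). In bulk RNA, fewer cells of a type and less RNA per cell cannot be told apart. The part of these differences in the results below was not tested.

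Promoter sequence was looked at because several of the genes changed while Wwtr1 did not pass the test, and TEAD proteins are known to bind the hexamer GGAATG. In RefSeq promoters of the build GRCm38.p6, which run from 250 bases before to 50 after a gene's start, the hexamer was searched on both strands, so that CATTCC also counts and matches on opposite strands share no base. It was present for 5 of the 6 genes that the table holds (Yap1, Wwtr1, Tead3, Vgll3 and Vgll4, but not Tead2), and for 16.6% of all 27025 genes in it. The 3 windows printed are those of a gene whose RNA rose (Vgll3, chr16:65814939-65815238, plus strand), a gene whose RNA fell (Tead3, chr17:28350551-28350850, minus strand, of its 3 windows the one with most matches) and Wwtr1 (chr3:57575827-57576126, minus strand). Capitals mark the hexamer in either orientation.
Vgll3: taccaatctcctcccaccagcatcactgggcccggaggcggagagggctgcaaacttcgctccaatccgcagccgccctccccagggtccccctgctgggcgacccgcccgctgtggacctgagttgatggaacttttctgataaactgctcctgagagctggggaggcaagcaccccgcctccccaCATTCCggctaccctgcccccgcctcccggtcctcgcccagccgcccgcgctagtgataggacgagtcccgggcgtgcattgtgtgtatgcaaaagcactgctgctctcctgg
Tead3: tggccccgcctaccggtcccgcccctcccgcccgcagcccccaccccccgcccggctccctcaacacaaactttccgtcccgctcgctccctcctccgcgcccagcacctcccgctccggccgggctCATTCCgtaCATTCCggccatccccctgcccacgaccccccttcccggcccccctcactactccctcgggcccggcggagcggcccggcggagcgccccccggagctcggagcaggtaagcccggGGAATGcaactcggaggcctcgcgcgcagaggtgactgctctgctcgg
Wwtr1: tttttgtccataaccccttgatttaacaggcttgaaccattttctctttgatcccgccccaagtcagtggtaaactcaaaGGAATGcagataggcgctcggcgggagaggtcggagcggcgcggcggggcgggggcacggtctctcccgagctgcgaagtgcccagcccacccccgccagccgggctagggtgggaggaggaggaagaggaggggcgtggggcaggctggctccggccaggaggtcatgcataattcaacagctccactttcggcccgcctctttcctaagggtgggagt
The Vgll3 and Wwtr1 windows held 1 match each and the Tead3 window held 3, so that genes with unlike changes shared the hexamer. The Tead3 windows not printed held 0 and 1 matches. A match is a description of the letters and does not show that TEAD was bound there.

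Without pairing of the libraries, limma called 0 of 12820 tested genes at an adjusted p under 0.05 (0% of genes), although 1558 genes had an unadjusted p under 0.05, edgeR also called 0, and DESeq2 called 325 higher and 397 lower. Libraries with the same number deviated alike from their group means, but only replicate 1 was clearly set apart in this way. For replicate 3 the correlation was 0.532 within its number and 0.552 with the best other number. A second limma fit took the number as a blocking factor, and every rise or fall given here rests on that pairing. This blocked fit called 17.3% of all tested genes, 8.32% as higher and 8.96% as lower. All 8 genes were tested, and 2 of them were higher (Tead1 and Vgll3) and 3 lower (Yap1, Tead3 and Tead4), where Yap1 is the gene the siRNA was aimed at. The words rose and fell are kept for genes past the threshold in the blocked fit, and changes are on the log2(normalized count + 1) scale unless a ratio is named. In limma without a mean-variance trend, none of these 5 passed with the block, with adjusted p between 0.0604 and 0.123.

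**Figure D1:**
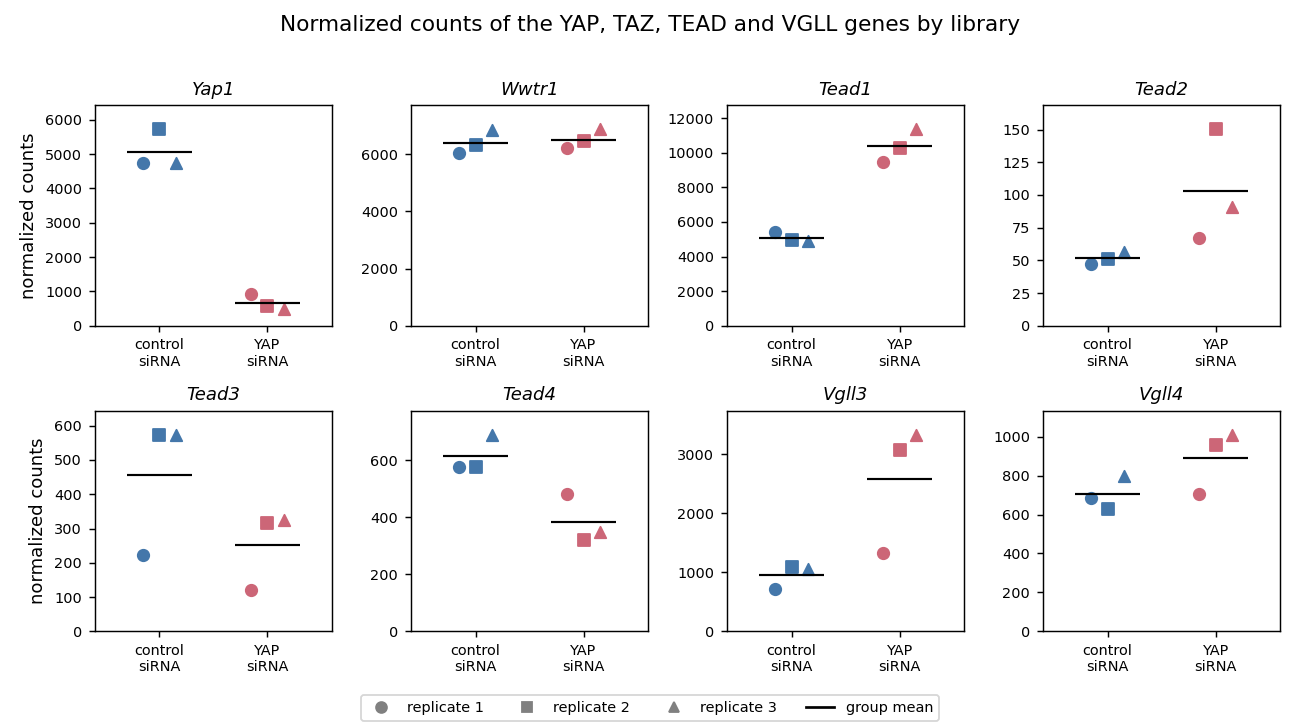
Normalized counts (vertical axes, each from 0) of the 8 genes in the 3 control siRNA and 3 YAP siRNA libraries; symbols give the replicate number and lines the group means. Yap1, Tead1, Tead2, Tead4 and Vgll3 have groups that do not overlap, whereas Wwtr1 lies between 6033 and 6873.5 throughout.

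Yap1, the target of the siRNA pool, was reduced in every library that received it, but by a different amount in replicate 1. Control replicates 1, 2 and 3 held 4749.6, 5732 and 4751 normalized counts, against 936, 571 and 475 with YAP siRNA, and the groups lay far apart. Within replicate numbers 1, 2 and 3, the YAP siRNA library held 0.197, 0.0997 and 0.0999 times the control's normalized count. The recovered reads behind the lower values were 779, 566 and 315. Yap1 fell by 2.995 on the log2 scale (SE 0.184, limma adjusted p = 4.51e-04 blocked, 0.118 unblocked). Only 24 of the tested genes had a change of this size or more in either direction, itself included. In the annotation, 1.25% of its exon bases overlap Gm20416 on the opposite strand.

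Wwtr1, which encodes TAZ, the paralogue of YAP, kept nearly the same level. Its normalized counts were 6033, 6311 and 6848 in control replicates 1, 2 and 3, and 6205, 6443.5 and 6873.5 in YAP siRNA replicates 1, 2 and 3. The groups overlapped, and each YAP siRNA library was close to the control with its number, at ratios of 1.03, 1.02 and 1.00. The log2 fold change was 0.025 (blocked 95% interval −0.16 to 0.21, limma adjusted p = 0.853 blocked, 0.982 unblocked). A change of more than 0.21 in either direction thus lies outside the interval of the blocked fit. Without the block the SE was larger, 0.117 against 0.0811. The sign of the fold change turned below 0 when control replicate 1 (−0.016) or YAP siRNA replicate 3 (−0.015) was left out. Of the tested genes, 94.1% had a change at least as large.

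The difference between the log2 levels of Yap1 and Wwtr1, in which the scale factor of a library nearly cancels, was −0.35, −0.14 and −0.53 in the controls and −2.73, −3.49 and −3.85 after YAP siRNA. It was lower by 3.02 after YAP siRNA, with groups that did not overlap (two-sided exact permutation p = 0.1, the least possible with 3 libraries a group). Levels of different genes were set side by side per kilobase of merged exon, counting the exons of all annotated isoforms. The annotation behind the deposited counts was not stated, so shares and orders on this scale are approximate. Per kilobase, Wwtr1 was above Yap1 in all 6 libraries. Yap1 made up 28.9%, 31.9% and 26.4% of the summed length-scaled level of both in control replicates 1, 2 and 3, and 7.2%, 4.4% and 3.4% after YAP siRNA. The sum went from between 1776 and 1946 normalized counts per kilobase in the controls to between 1400 and 1490 after YAP siRNA. Yap1 was thus the smaller part of this sum before as well as after the knockdown.

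Tead1, which encodes a TEAD factor needed for heart development in mice, rose in all 3 replicate numbers. Control replicates 1, 2 and 3 held 5417, 4942 and 4888 normalized counts, and YAP siRNA replicates 1, 2 and 3 held 9463, 10303 and 11372. Every YAP siRNA library was above every control library, and the ratios within numbers were 1.75, 2.08 and 2.33. The log2 fold change was 1.03 (SE 0.0994, 95% interval 0.80 to 1.25, limma adjusted p = 0.00142 blocked, 0.123 unblocked). It passed in 10 of 11 settings with the block, with adjusted p at most 0.0761. Counting Tead1 itself, 280 tested genes had a log2 fold change this high or higher.

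Tead3, which is known for expression in placenta, fell by nearly the same ratio in each replicate number although its level varied between libraries of one group. It stood at 221.55, 574 and 573 normalized counts in control replicates 1, 2 and 3, and 120.21, 315 and 324 in YAP siRNA replicates 1, 2 and 3. The groups overlapped, because control replicate 1 lay below YAP siRNA replicates 2 and 3, but within numbers the ratios were 0.543, 0.549 and 0.565. This gave a log2 fold change of −0.85 (SE 0.151 blocked and 0.541 unblocked, limma adjusted p = 0.00889 blocked, 0.597 unblocked). Leaving out replicate 2 of both groups ended the call (blocked limma adjusted p = 0.110). Without the block, leaving out 1 library moved the log2 fold change of Tead3 to −0.39 (without YAP siRNA replicate 1) or −1.31 (without control replicate 1). The lowest library, YAP siRNA replicate 1, held 100 recovered reads of this gene.

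Tead4, known for its role in the trophectoderm of the mouse embryo, also fell. The normalized counts of Tead4 were 578, 576 and 689.77 in control replicates 1, 2 and 3, and 481, 322 and 348 in YAP siRNA replicates 1, 2 and 3. The groups did not overlap, and the ratio was nearest to 1 in replicate 1, at 0.832 against 0.559 and 0.505 in replicates 2 and 3. Its log2 fold change was −0.70 (SE 0.169, limma adjusted p = 0.0269 blocked, 0.279 unblocked). In the blocked fit it was not past the threshold without replicate 2 or without replicate 3 of both groups (limma adjusted p = 0.205 and 0.112).

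Tead2, known from early mouse embryos, was the lowest of the 8 genes and did not pass. Control replicates 1, 2 and 3 held 47.0, 50.7 and 56.7 normalized counts, and the YAP siRNA libraries with these numbers held 67.3, 150.37 and 90.4. The groups did not overlap, but replicate 2 had the largest ratio, 2.97, against 1.43 and 1.6 in replicates 1 and 3. For Tead2 the log2 fold change was 0.91 (SE 0.30, 95% interval 0.22 to 1.59, limma adjusted p = 0.0714 blocked, 0.394 unblocked). Without replicate 1 of both groups it passed at 1.11 (blocked limma adjusted p = 0.00118), in a setting where 43.7% of all tested genes passed. The log2 fold change of Tead2 was 0.59 without replicate 2 of both groups (blocked limma adjusted p = 0.507). Without YAP siRNA replicate 2 alone it was 0.595 (limma adjusted p = 0.825, unblocked). The values rest on 31 to 149 recovered reads per library, and 0.27% of its exon bases overlap Cd37 on the opposite strand.

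**Figure D2:**
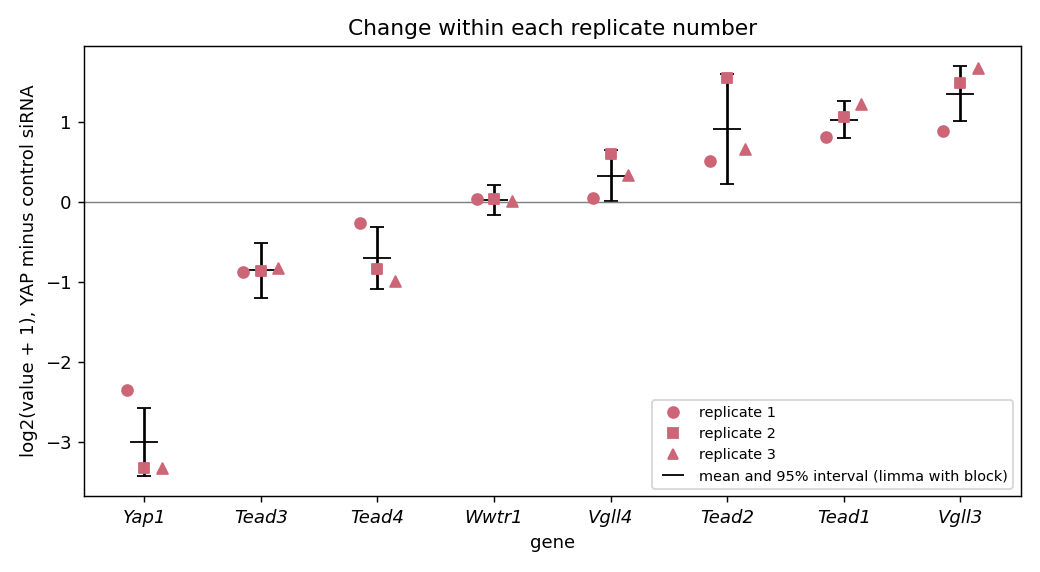
Difference in log2(normalized count + 1), YAP siRNA minus control siRNA, for each gene within replicate numbers 1 to 3 (symbols), with the mean and its 95% interval from limma with the replicate block (black). The 3 Tead3 values almost coincide, from −0.88 to −0.82, whereas those of Tead2 run from 0.51 to 1.55.

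Among the TEAD genes the direction thus differed between Tead1 on one side and Tead3 and Tead4 on the other, and this was tested on the difference of log2 levels within a library. Tead1 minus Tead3 was 1.88 higher after YAP siRNA, and Tead1 minus Tead4 was 1.72 higher, each with groups that did not overlap (exact permutation test, two-sided, p = 0.1 for both, the smallest possible). Within replicate numbers 1, 2 and 3, Tead1 gained 1.68, 1.92 and 2.04 on Tead3, and 1.07, 1.90 and 2.20 on Tead4. Tead1 minus Tead2 differed by 0.12 between the groups, which overlapped (exact permutation p = 0.8). These were 3 of 5 pairs of genes compared in this way, with no adjustment over them.

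Per kilobase of exon, Tead1 was the most abundant TEAD gene in all 6 libraries and its share was higher in each YAP siRNA library than in any control. It made up 66.2%, 58.7% and 55.5% of the summed length-scaled level of the TEAD genes in control replicates 1, 2 and 3, and 80.8%, 81.9% and 83.6% after YAP siRNA. Tead4 went from 26.7%, 25.8% and 29.5% to 15.5%, 9.65% and 9.66%, and Tead3 held between 2.07% and 13.8% across all libraries. Summed over the 4 genes, the level was between 603 and 649 normalized counts per kilobase in the controls and between 863 and 1002 after YAP siRNA.

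**Figure D3:**
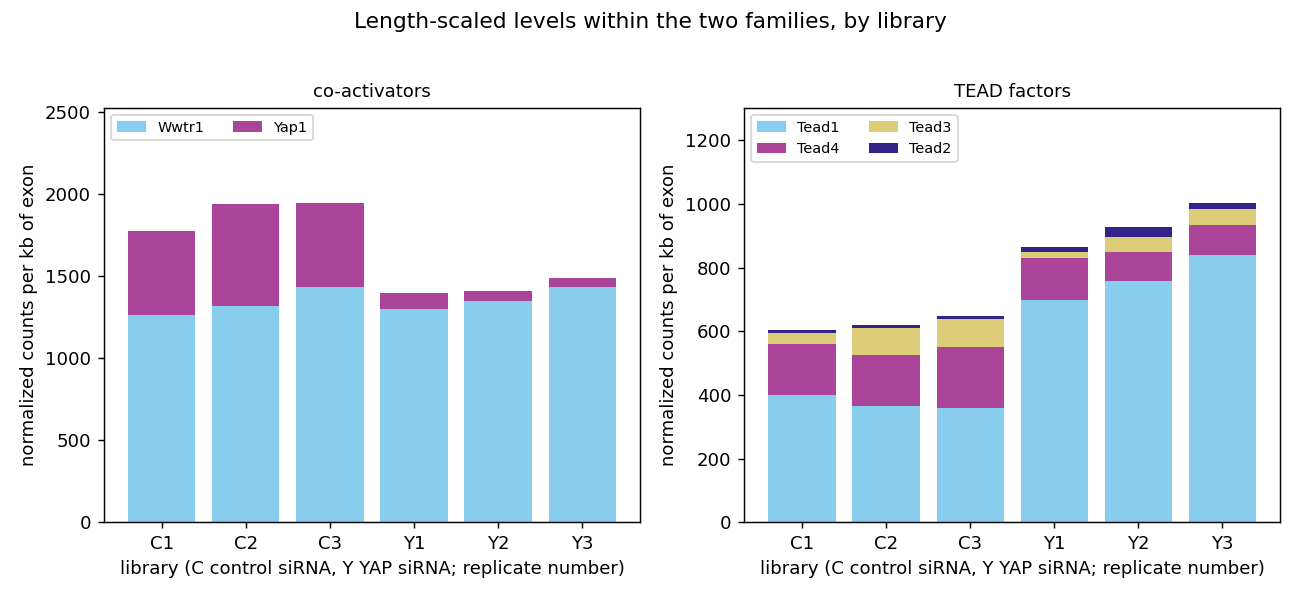
Normalized counts per kilobase of merged exon, stacked by gene, for YAP and TAZ (left) and the TEAD factors (right) in control libraries C1 to C3 and YAP siRNA libraries Y1 to Y3. The left stack loses most of its Yap1 segment, while the right stack grows through Tead1, which reaches 83.6% of the stack in Y3.

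Vgll3, which encodes a TEAD cofactor, had the largest rise of the 8. Its normalized counts were 719, 1090.5 and 1049 in control replicates 1, 2 and 3, and 1332, 3063 and 3327.5 in YAP siRNA replicates 1, 2 and 3. The groups did not overlap, and the ratio was smallest in replicate 1, at 1.85 against 2.81 and 3.17. The log2 fold change was 1.35 (SE 0.15, 95% interval 1.00 to 1.69, limma adjusted p = 0.00189 blocked, 0.256 unblocked). It passed in 10 of 11 settings with the block. Counting Vgll3 itself, 143 tested genes had a log2 fold change this high or higher.

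Vgll4, which encodes the TEAD-binding competitor of YAP, did not pass. It stood at 684, 628 and 799 normalized counts in control replicates 1, 2 and 3, and at 707, 955 and 1009.7 in YAP siRNA replicates 1, 2 and 3. The groups overlapped, since YAP siRNA replicate 1 lay below control replicate 3. Its log2 fold change was 0.33 (95% interval 0.01 to 0.64, limma adjusted p = 0.131 blocked, 0.577 unblocked). Without replicate 1 of both groups it passed at 0.47 (blocked limma adjusted p = 0.00107), in a setting where 43.7% of all tested genes passed. Without replicate 2 of both groups the value for Vgll4 was 0.19 (blocked limma adjusted p = 0.654). Vgll3 minus Vgll4 was 1.02 higher after YAP siRNA, with groups that did not overlap (exact permutation p = 0.1, two-sided, the smallest possible). Of the other Vestigial-like genes, Vgll1 was listed at 0 in all 6 libraries, and Vgll2 averaged 209.7 ± 38.6 normalized counts with control siRNA and 140.5 ± 33.8 with YAP siRNA (SD, n = 3; blocked limma adjusted p = 0.0818).

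Groups did not overlap for 5 of the 8 genes, 3 higher and 2 lower with Yap1 included, and for 19.0% of all tested genes, 9.47% higher and 9.49% lower. In replicate 1, where Yap1 kept the largest share of its control level, the changes of Tead1, Tead2, Tead4, Vgll3 and Vgll4 were also the smallest of the 3 numbers, whereas those of Tead3 and Wwtr1 were not. Replicate 1 of both groups also stood apart from the other libraries across all genes, and these cannot be told apart. By length-scaled level the order in the controls was Wwtr1, Yap1, Tead1, Tead4, then Vgll3 and Vgll4, whose values overlapped, then Tead3 and Tead2. After YAP siRNA the order by group mean was Wwtr1, Tead1, Vgll3, Vgll4, Tead4, Yap1, Tead3 and Tead2. There the ranges of neighbours overlapped for Vgll4 and Tead4, for Tead4 and Yap1, and for Tead3 and Tead2.

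The genes with the pattern most like that of Yap1 over the 6 libraries were Ptgs2, Sema7a and Areg. Likeness was the root-mean-square difference between log2 levels after each gene was centred on its own mean, over 10755 candidates whose mean was 50 or more, and was 0.265, 0.332 and 0.403. Ptgs2 encodes a prostaglandin-forming enzyme, Sema7a a membrane-anchored semaphorin and Areg an EGF family ligand. For Tead1 the nearest genes were Mospd2, Dclk1 and Mfsd8, at 0.0736, 0.0836 and 0.101. Dclk1, which encodes a microtubule-associated kinase, stood at 3897, 4096 and 3829.9 normalized counts in the controls and 7094, 8746.5 and 9282 after YAP siRNA.

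Pathway genes around the 8 were counted from 4 lists, beside the 17.3% of all tested genes that passed with the block (8.32% higher and 8.96% lower). That share covers every gene whose mean reached 10, and it was not matched to the levels of the listed genes. Over all tested genes this share was 43.7% without replicate 1 of both groups (2804 higher and 2792 lower), 2.34% without replicate 2 (123 and 177) and 8.80% without replicate 3 (538 and 590). Among 28 Hippo kinases, scaffolds and upstream regulators, 5 rose and 6 fell with the block, or 39.3% of the list. The median log2 fold change of the list was −0.12, beside 0.009 for all tested genes. Among the 6 that fell was Nf2, which the cells are labelled as lacking, at −0.34 (limma adjusted p = 0.0317 blocked, 0.312 unblocked). The scaffold gene Amot and the kinase gene Lats1, whose product phosphorylates YAP and TAZ, fell by 1.17 and 0.82 on the log2 scale, and the angiomotin-like gene Amotl2 rose by 0.83. Lats1 went from 8910.0 ± 2320.0 to 5017 ± 989 normalized counts (SD, n = 3; limma adjusted p = 0.00179 blocked, 0.256 unblocked). These counts were 8 and 11 (67.9%) without replicate 1 of both groups, 1 and 2 (10.7%) without replicate 2, and 2 and 3 (17.9%) without replicate 3.

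Among 28 tested genes for other binding partners and nuclear cofactors, 3 rose and 3 fell, with a median of 0.01. This was 21.4% of the list, near the 17.3% of all tested genes, so the count shows nothing about the partners as a group. Ctnnb1, which encodes beta-catenin, rose by 0.76, and the AP-1 gene Fosl1 and the co-activator gene Ncoa1 fell by 0.70 and 0.57 on the log2 scale. Ctnnb1 varied widely within groups, at 14770 ± 9080 normalized counts with control siRNA and 25040 ± 15300 with YAP siRNA (SD, n = 3, limma adjusted p = 0.00212 blocked, 0.804 unblocked). Among 21 enzymes that mark or degrade YAP, TAZ or TEAD, 1 rose and 4 fell, or 23.8% beside 17.3% of all tested genes, with a median of −0.11. The Src family kinase gene Yes1 rose by 0.70, and the kinase gene Nlk and the ubiquitin ligase gene Fbxw7 fell by 1.01 and 0.43 on the log2 scale. Nlk averaged 1868 ± 368 normalized counts with control siRNA and 967.6 ± 422 with YAP siRNA (SD, n = 3; limma adjusted p = 0.00805 blocked, 0.292 unblocked). Without replicate 1 of both groups the counts were 7 and 9 for the partners (57.1%) and 7 and 7 for the enzymes (66.7%), beside 43.7% of all tested genes. Without replicate 2 they were 1 and 0 (3.57%) and 0 and 1 (4.76%), beside 2.34%, and without replicate 3 they were 1 and 1 (7.14%) and 1 and 2 (14.3%), beside 8.80%.

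Among the 22 signature targets of YAP and TAZ, which the co-activators are known to induce through TEAD, 5 rose and 4 fell, or 40.9% beside 17.3% of all tested genes, with a median of −0.004. Rbms3 and Amotl2, which is also in the first list, rose by 0.94 and 0.83, and the tissue factor gene F3 fell by 0.90 on the log2 scale. The counts were 7 and 7 (63.6%) without replicate 1 of both groups, 1 and 1 (9.09%) without replicate 2, and 5 and 2 (31.8%) without replicate 3, beside 43.7%, 2.34% and 8.80% of all tested genes. None of the genes in the 4 lists passed in limma without the block and with all libraries kept, which called 0 of the tested genes. Their calls in unblocked DESeq2 and with single libraries left out were not looked at.

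**Figure D4:**
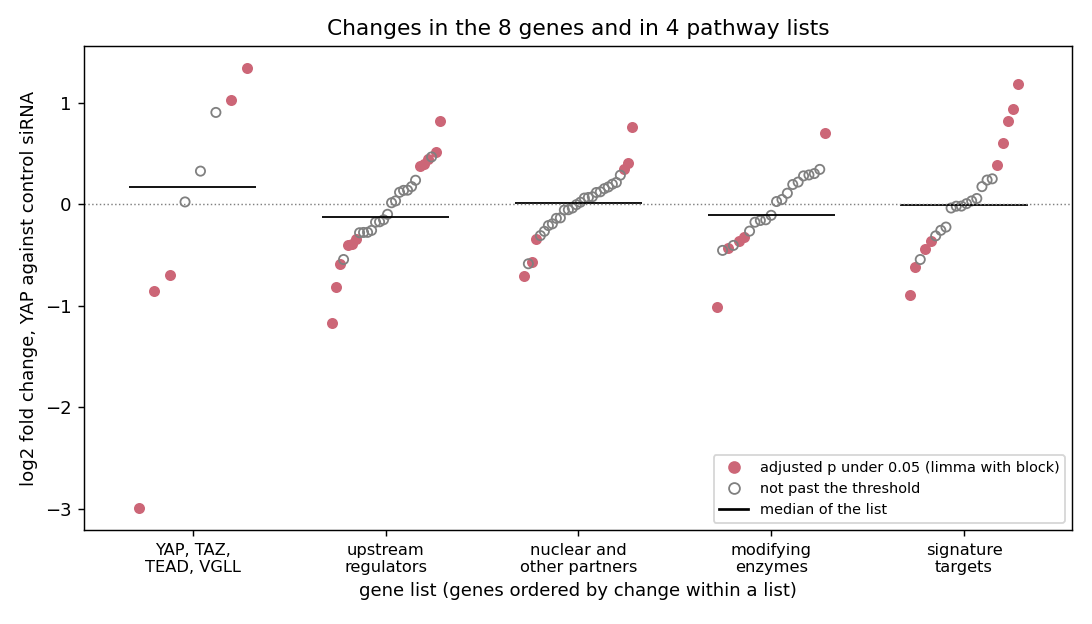
Log2 fold change (YAP siRNA against control siRNA) of the 8 genes and of the tested members of 4 pathway lists, ordered within each list; filled points passed in limma with the replicate block and lines are medians. Yap1 lies far below all other points at −2.995, and list medians lie between −0.12 and 0.01 outside the 8 genes.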

How the data were processed

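Poly(A) RNA was made into directional, paired-end libraries, per the labels' protocols. Per the submitters' processing notes, the build was mm9 and the tools were DESeq 1.14.0, HTSeq 0.6.1 and TopHat2 2.0.9; annotation, strand setting and filters were not stated there. The authors deposited a normalized signal, that is, counts per gene over a size factor of the library. All values above 0 were whole multiples of 1 read within 0.01 reads (100% in each library), so reads were recovered.

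The log2 of each value plus a pseudocount of 1 was tested with limma 3.58.1 (R 4.3.3, mean-variance trend, two-sided, Benjamini-Hochberg over all tested genes), for the genes whose mean reached 10. Both groups carry replicate numbers 1 to 3 in the labels. Deviations from group means correlated at 0.788, 0.705 and 0.532 for numbers 1, 2 and 3, all over the minimum of 0.1, so libraries were treated as paired by number; the best other number gave −0.620, 0.552 and 0.552, so the check separates replicate 1 mainly. No label names a shared day or batch. Libraries of one group differed beyond sampling noise (chi-square per degree of freedom at least 8.04). As alternatives, recovered reads were tested with DESeq2 1.42.0 and with edgeR 4.0.16. The code was tested on simulated data. Exon lengths and overlaps came from GENCODE M21, built on another assembly, so no coordinates of it are given.

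The 8 genes and the lists were chosen with earlier results of these data known. All 8 are named; in each list up to 3 passing genes with the smallest p in the blocked fit are named, and for Yap1 and Tead1 the 3 genes most alike. Sox10, S100b and the other markers, and Vgll1, Vgll2 and Nf2, were named as list members after their values were seen. A marker that was listed is not reported here.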

Additional observations from a re-analysis of the deposited data

How the results depend on the processing

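Without the block, 0 genes were higher and 0 lower, also with other pseudocounts, filters and scalings, without a trend and with edgeR; DESeq2 called 325 and 397. Leaving out single libraries gave 0 to 192 higher and 0 to 305 lower, the most without control replicate 1, and 3 and 5 without YAP siRNA replicate 1. With the replicate block, 1067 were higher and 1149 lower. Other blocked settings gave 1053 and 1137 (pseudocount 0.5), 1072 and 1163 (pseudocount 10), 1225 and 1027 (rescaled to one total), 1167 and 1182 (quantile normalization), 12 and 18 (no trend), 1190 and 1289 (edgeR), 1182 and 1308 (DESeq2), and 262 and 357 (adjusted p under 0.01). Blocked counts were 2804 and 2792 without replicate 1 of both groups, 123 and 177 without replicate 2, and 538 and 590 without replicate 3. With a number left out, p-values rest largely on variance borrowed from other genes.

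The log2 fold changes of Yap1, the TEAD genes, Vgll3 and Vgll4 kept their sign in all 27 settings run for each, but without 1 library Tead3 ranged from −1.31 to −0.39 and Tead2 from 0.595 to 1.17. Wwtr1 ranged from −0.016 (without control replicate 1) to 0.075 over single left-out libraries, and was −0.015 without YAP siRNA replicate 3. Without the block, Yap1 passed in 3 settings, Tead1 in 2 and Vgll3 in 1, DESeq2 among them in each case. Tead1 minus Tead2 ranged from −0.077 (without YAP siRNA replicate 1, exact permutation p = 0.9) to 0.435 (without YAP siRNA replicate 2); the cause was not tested. Taken within replicate numbers, the pair differences other than Tead1 minus Tead2 had the smallest sign-flip p that 3 numbers allow, 0.25 (exact). Counts in the gene lists under left-out numbers were added after seeing the data. Depth limits Tead2 most, with 31 reads in its lowest library.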
